A study of Mus musculus with 15 samples.

Results

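The genes described here are 43 genes of the contractile apparatus and the energy supply of skeletal muscle, out of 52526 genes with values in each mouse. They were taken by name from a fixed list and were chosen by their levels across these same mice, in particular by the mouse with the highest Ckm, so the pattern over mice is given as a description with no test. Female nude mice (nu/nu, Crl:NU-Foxn1nu), which lack a thymus and carry the Foxn1 mutation in both groups, received either BDE-47 at 0.03 mg/kg/d (n = 7) or vehicle alone (PEG300 with 1% DMSO, n = 8) from subcutaneous osmotic pumps. Dosing began after 8 weeks of age and lasted 16 weeks, with a new pump at week 8. RNA came from the left 4th mammary tissue, 1 library per mouse, and some of the mice carried xenografts for separate work, which the sample labels do not give per mouse. Mammary tissue is fat with epithelial ducts, vessels and stroma, and striated muscle is not one of its own cell types. BDE-47 is a brominated flame retardant that builds up in fat.

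Muscle shortens when myosin of the thick filament pulls on actin of the thin filament. Calcium released from the sarcoplasmic reticulum binds troponin C and lets that happen, the Z-disc anchors the filaments, and creatine kinase and glycogen breakdown keep ATP supplied. Fast and slow fibres build the same machine from different copies of the myosin, troponin and calcium pump genes, which makes these genes a readout of fibre type as well as of muscle. The 43 genes were grouped by role into 10 of the thick filament, 9 of the thin filament, 9 of the Z-disc and elastic scaffold, 7 of calcium handling and 8 of energy metabolism. Of these, 14 are fast-fibre genes, 6 are slow-fibre genes and 23 were assigned to neither.

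The sequence just before the annotated start is shown for the fast-fibre and common genes with the highest levels that have an entry. The slow myosin Myh7 is added as a contrast. Whether these sequences bear on the levels over the mice was not tested. Each is the 250 bases upstream of the start in RefSeq on GRCm38.p6, a patch release of the build in the submitters' processing notes, written 5′ to 3′ on the strand of the gene. Capitals mark every E-box (CANNTG, the class of site bound by MyoD and its relatives), every TATA box (TATAAA on either strand), every CArG box (bound by serum response factor) and every MEF2 site that a search of these letters found. The CAGCTG form of the E-box is contained in CANNTG, and a MEF2 site can overlap a TATA box.
Acta1, chr8:123894776-123895025, minus strand: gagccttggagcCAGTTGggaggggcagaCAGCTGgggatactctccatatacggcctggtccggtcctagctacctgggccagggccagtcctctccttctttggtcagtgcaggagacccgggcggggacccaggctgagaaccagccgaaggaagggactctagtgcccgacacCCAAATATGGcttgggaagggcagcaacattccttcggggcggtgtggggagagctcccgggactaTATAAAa
Tnnc2, chr2:164779735-164779984, minus strand: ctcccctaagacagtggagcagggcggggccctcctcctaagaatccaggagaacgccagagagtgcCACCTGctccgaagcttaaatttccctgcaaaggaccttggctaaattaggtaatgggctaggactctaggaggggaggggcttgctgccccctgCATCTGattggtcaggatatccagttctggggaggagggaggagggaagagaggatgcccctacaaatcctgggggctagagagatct
Myh4, chr11:67237562-67237811, plus strand: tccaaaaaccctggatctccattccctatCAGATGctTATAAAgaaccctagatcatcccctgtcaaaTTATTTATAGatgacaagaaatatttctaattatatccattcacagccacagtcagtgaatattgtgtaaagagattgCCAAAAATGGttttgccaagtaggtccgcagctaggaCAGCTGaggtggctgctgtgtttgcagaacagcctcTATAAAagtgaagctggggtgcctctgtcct
Ckm, chr7:19410844-19411093, plus strand: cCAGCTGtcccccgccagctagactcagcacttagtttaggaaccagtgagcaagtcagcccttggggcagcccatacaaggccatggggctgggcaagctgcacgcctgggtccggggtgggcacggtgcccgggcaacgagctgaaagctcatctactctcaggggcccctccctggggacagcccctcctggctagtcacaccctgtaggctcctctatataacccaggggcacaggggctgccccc
Myh7, chr14:54994550-54994799, minus strand, the more downstream of its annotated starts: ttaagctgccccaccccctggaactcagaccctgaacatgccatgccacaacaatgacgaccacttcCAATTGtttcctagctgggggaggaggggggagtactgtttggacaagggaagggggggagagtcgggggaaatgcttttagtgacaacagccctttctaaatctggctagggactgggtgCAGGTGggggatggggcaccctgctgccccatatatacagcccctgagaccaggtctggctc

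RefSeq gave such a window for 32 of the 43 genes. At least 1 E-box was found in 84.4% of these 32 genes and in 69.3% of all 27025 genes with a window. The CAGCTG form was found in 14 of the 32, or 43.8%, and in 14.7% of all genes. A CArG box was found in 4 of the 32 genes, Acta1, Myh4, Myl3 and Ldb3, against 1.62% of all genes, and a MEF2 site was found in 6 of the 32 against 3.42% of all genes. TATAAA was found in 18.8% of the 32 genes and in 14.3% of all genes. These are letter matches in a short window and not measured binding. The 43 genes lie on 15 chromosomes with 9 of them on chromosome 7, and only 2 sets lie within 100 kb of each other. Myh2, Myh1 and Myh4 follow each other on chromosome 11 with 2.58 kb and 13.2 kb between neighbours, and Tnni2 lies 54.4 kb from Tnnt3 on chromosome 7.

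QuantSeq 3′ FWD samples transcripts at the 3′ end, which makes counts scaled to total mapped reads (CPM) of different genes comparable without a correction for length. The deposited values are log2(CPM), and every gene under 1 CPM is listed at 0. Read depth was 10.1 to 19.6 M mapped reads per mouse, so that a gene needed 11 to 20 reads to be listed above 0, and genes above 1 CPM took 52.0% to 66.3% of each library. White adipocyte markers were present in every mouse (9 or 10 of 10 above 1 CPM) and so were mammary epithelial markers (9 to 12 of 12). Vehicle replicates 6 and 8 stood apart, with summed B cell markers of 542 and 733 CPM against 0 to 4.05 in the other mice and the lowest adipocyte and epithelial sums.

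All 43 genes were highest in the same mouse, BDE-47 replicate 6. Of the 16314 genes above 1 CPM in at least 1 mouse, 7.15% were highest there, which is the background for that count, and the choice of the genes used this pattern. Summed over the 43 genes, the level in BDE-47 replicate 6 was 163481 CPM. The other 14 mice had 70.8 to 373 CPM (median 120.0). The mouse was thus 438-fold above the next one and 1362-fold above the median of the others. Its 43 genes held 3200154 reads, or 16.3% of the library (95% Wilson interval 16.3% to 16.4%, counting error only, since reads without molecular identifiers are not independent molecules). The share was 0.00708% to 0.0373% in the other mice. In bulk tissue, more muscle in the sample and more RNA per muscle cell cannot be told apart.

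**Figure D1:**
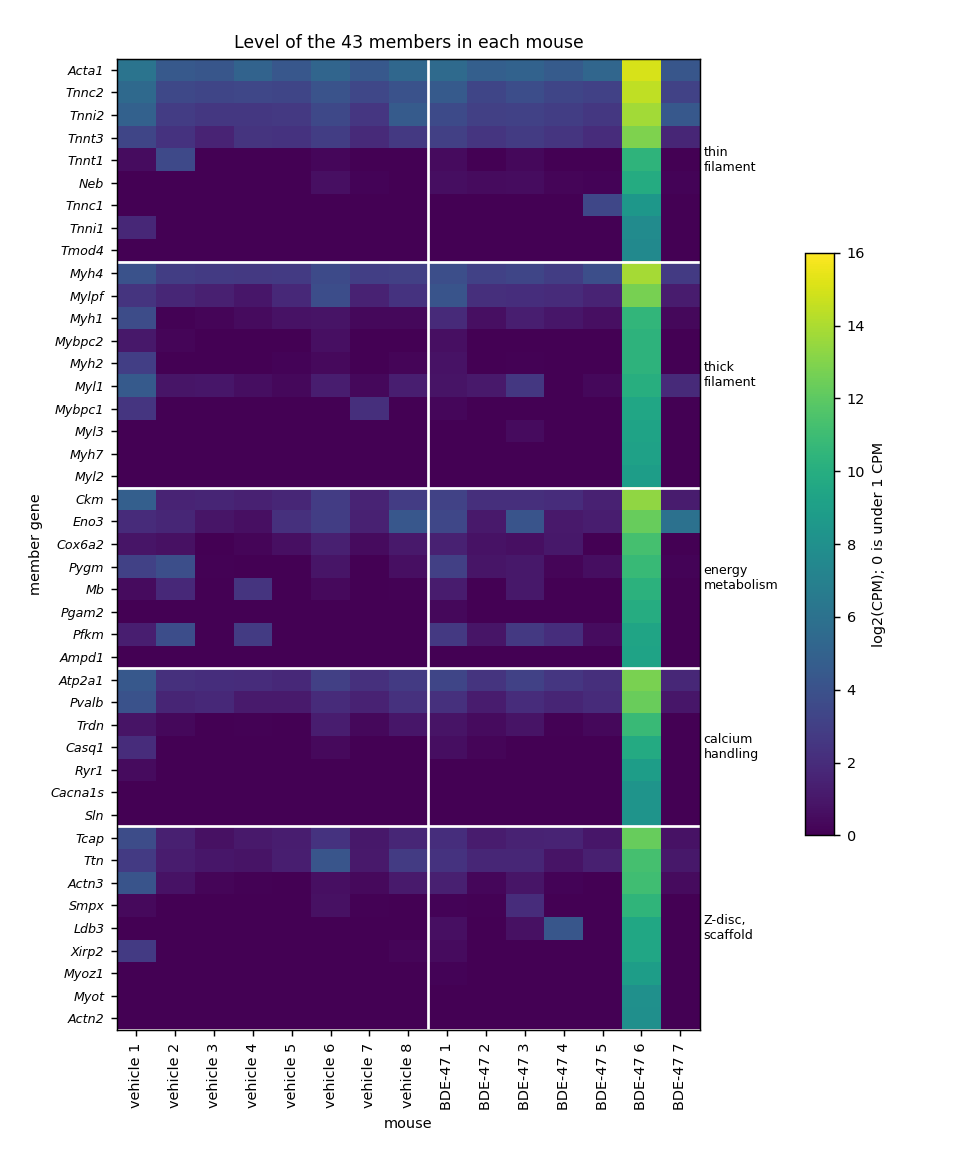
Level of each of the 43 genes (rows, grouped by role and ordered by their level in BDE-47 replicate 6) in each of the 15 mice (columns), as log2(CPM) on a colour scale from 0 to 16, where 0 means under 1 CPM. The column of BDE-47 replicate 6 is bright for all 43 genes, from 7.60 to 15.06, and vehicle replicate 1 is the next mouse to stand out.

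The thin filament genes held the largest part of these reads, with 82037 CPM in BDE-47 replicate 6, or 50.2% of the sum over the 43 genes. Acta1, the skeletal muscle actin, was at 4.28 to 6.16 log2(CPM) in the 8 vehicle mice (median 4.80) and at 4.29 to 15.06 in the 7 BDE-47 mice (median 5.04). In BDE-47 replicate 6 it stood at 34090 CPM, the second most abundant of all genes there, and the other 6 BDE-47 mice lay within the range of the vehicle mice. Tnnc2, the fast troponin C that binds calcium, reached 14.50 log2(CPM) in that mouse, against 3.33 to 5.45 in vehicle mice (median 3.44) and 3.11 to 4.55 in the other BDE-47 mice (median 3.34). Tnni2, the inhibitory fast troponin, reached 13.79 and was at most 4.95 in vehicle mice (median 2.75). Tnnt3, the fast troponin that binds tropomyosin, reached 12.89 and was at 1.60 to 3.34 in vehicle mice. BDE-47 replicate 6 lay far above the other 14 mice for each of these genes, vehicle replicate 1 came next for all of them, and none was under 1 CPM in any mouse. Neb, the giant protein that runs along the actin filament, was at 9.83 in that mouse and at most 0.63 in the others. Tmod4, which caps the pointed end of actin, was at 7.60 there and listed at 0 in the other 14 mice.

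Among the 10 thick filament genes, summing to 28698 CPM in BDE-47 replicate 6, Myh4 led. Myh4, the myosin heavy chain of the fastest (type IIb) fibres, was at 13.82 log2(CPM) there, at 2.69 to 4.06 in vehicle mice (median 2.92) and at 2.72 to 3.87 in the other BDE-47 mice (median 3.21). Mylpf, the fast regulatory light chain, was at 12.73 there, at 0.95 to 3.80 in vehicle mice (median 1.77) and at 1.21 to 4.18 in the other BDE-47 mice (median 2.02). Both genes were listed above 1 CPM in every mouse, at a low level outside BDE-47 replicate 6. Whether RNA from that mouse has a part in these low values was not tested. Myh1 (type IIx) reached 10.53 and Myh2 (type IIa) 10.32. Mybpc2 and Mybpc1, named the fast and slow myosin-binding proteins C, reached 10.37 and 9.44. Mybpc1 was assigned to neither fibre type here and is not in the slow sums. Myh1, Myh2 and Myh4 are close copies of each other, and how reads shared between them were assigned is not given in the sources used here, so their split is uncertain.

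Of the 8 genes of energy metabolism, Ckm was the highest. Ckm, the muscle creatine kinase, was at 13.35 log2(CPM) in BDE-47 replicate 6, at 1.44 to 4.86 in vehicle mice (median 1.71) and at 1.21 to 3.18 in the other BDE-47 mice (median 2.07). That mouse carried 10426 CPM of Ckm, 360-fold above vehicle replicate 1, the next mouse. Eno3, the muscle enolase of glycolysis, was at 12.30 in BDE-47 replicate 6 but also at 5.95 in BDE-47 replicate 7, 4.37 in vehicle replicate 8 and 4.15 in BDE-47 replicate 3. Pygm, the muscle glycogen phosphorylase, reached 10.78 and was also at 3.84 in vehicle replicate 2. Pfkm, the muscle phosphofructokinase, reached 9.34 and was at 3.77 in vehicle replicate 2. These glycolytic genes thus had scattered higher values in single mice of both groups. Mb, which stores oxygen as myoglobin, was at 10.26 there, and 7 of the other 14 mice were above 1 CPM with at most 2.42. Cox6a2, a muscle subunit of cytochrome c oxidase, was at 11.30 there and at most 1.48 elsewhere. Pgam2, the muscle phosphoglycerate mutase, was at 9.91, and Ampd1, the muscle AMP deaminase, at 9.25 and at 0 in the other 14 mice.

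The 7 calcium handling genes summed to 16156 CPM in BDE-47 replicate 6. The parts of the pump and of the release machinery follow in order of level. Atp2a1, the calcium pump of fast fibres, was at 12.80 log2(CPM) there, at 1.85 to 4.39 in vehicle mice (median 2.23) and at 1.81 to 3.34 in the other BDE-47 mice (median 2.48). Pvalb, the calcium buffer parvalbumin, was at 12.35 there, at 1.15 to 4.03 in vehicle mice (median 1.76) and at 0.98 to 2.22 in the other BDE-47 mice (median 1.83). The highest vehicle value of both genes was that of replicate 1. The genes of calcium release were lower in the same mouse, with Trdn (triadin) at 10.82, Casq1 (calsequestrin, the store protein) at 9.78, Ryr1 (the release channel) at 8.90 and Cacna1s (the voltage sensor) at 8.28. Sln, which encodes the pump regulator sarcolipin, was at 8.26. Cacna1s and Sln were listed at 0 in every other mouse.

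The 9 Z-disc and scaffold genes summed to 13391 CPM. Tcap, which ties titin to the Z-disc, was at 12.25 log2(CPM) in BDE-47 replicate 6, and Ttn, titin itself, at 11.28. Actn3, the fast Z-disc alpha-actinin, was at 11.08, and its paralog Actn2 at 7.99. Ttn was also at 4.23 in vehicle replicate 6, and Ldb3, a PDZ protein of the Z-disc, at 4.28 in BDE-47 replicate 4. Apart from these, Smpx, Xirp2, Myoz1 and Myot reached 8.05 to 10.46 in that mouse and at most 2.70 in any other.

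Fast-fibre genes outweighed slow-fibre genes in the mouse with the highest Ckm. The 14 fast genes summed to 87159 CPM there and the 6 slow genes to 3599 CPM, a 24.2-fold excess. Of the reads on the adult myosin heavy chains, Myh4 held 81.2%, Myh1 8.35%, Myh2 7.19% and the slow Myh7 3.21%. Tnnc2 was 65.6-fold above its slow counterpart Tnnc1, and Tnni2 was 66.2-fold above Tnni1. The gap was narrower for other pairs, with Mylpf 14.2-fold above Myl2, Tnnt3 5.58-fold above Tnnt1 and Myl1 1.65-fold above Myl3. Within this library every fast gene was thus above the slow gene of its family, and Mybpc2 was 1.91-fold above Mybpc1. These ratios come from 1 mouse and have no replicate check.

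**Figure D2:**
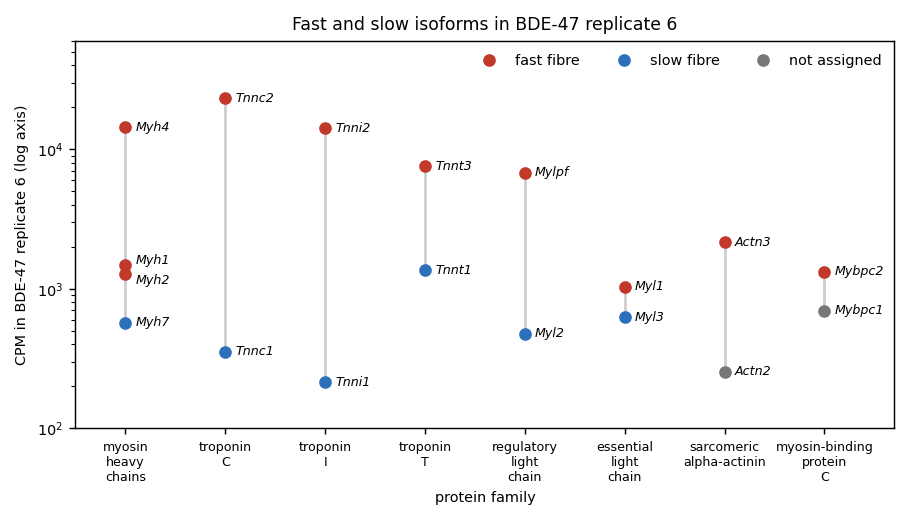
CPM in BDE-47 replicate 6 (vertical log axis) of the paralogs of 8 protein families (horizontal axis), in red for fast-fibre genes, blue for slow-fibre genes and grey for genes assigned to neither. The widest gaps are those of troponin C (23157 against 353 CPM) and troponin I (14174 against 214 CPM), and the narrowest is that of the essential light chains (1032 against 624 CPM).

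Outside that mouse the slow-fibre genes were close to absent and the fast-fibre genes were not. The fast sum lay between 40.6 and 212 CPM in the other 14 mice, and the slow sum between 0 and 11.7 CPM. Of the 6 slow genes, Myh7 and Myl2 were listed at 0 in all 14 mice, Tnnc1 was above 1 CPM only in BDE-47 replicate 5 (3.43 log2(CPM)), Tnni1 only in vehicle replicate 1 (1.78) and Myl3 only in BDE-47 replicate 3 (0.45). Tnnt1 was above it in 5 mice, with 3.55 in vehicle replicate 2. At the fast to slow proportions of BDE-47 replicate 6, only 8 of the 84 values of slow genes in these mice would reach 1 CPM, and 8 were measured above it, 4 of them the same ones. Whether fibre type differed between mice was therefore mostly not detectable at this floor. Vehicle replicate 1 had the most signal of the 14. There Myh4, Myh1 and Myh2 held 44.0%, 35.1% and 21.0% of the 582 reads on adult myosin heavy chains (95% Wilson intervals 40.0% to 48.0%, 31.3% to 39.0% and 17.9% to 24.5%). The intervals cover counting error only, each library is 1 mouse, and the split between these close copies is uncertain, so the shares are given side by side with no test. Mybpc1 was above Mybpc2 there, at 5.53 against 2.08 CPM, the reverse of their order in BDE-47 replicate 6.

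**Figure D3:**
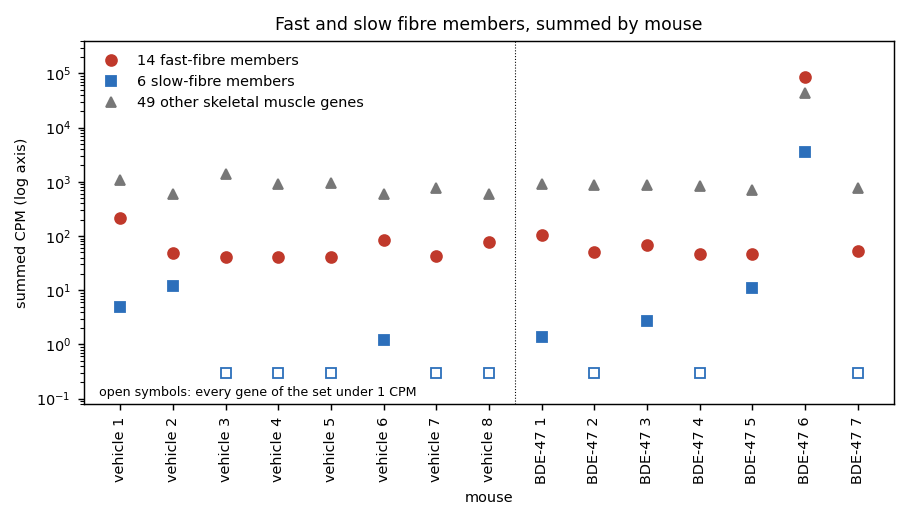
Summed CPM (vertical log axis) of the 14 fast-fibre genes, the 6 slow-fibre genes and 49 other skeletal muscle genes in each of the 15 mice, with open symbols where every gene of the set was under 1 CPM. BDE-47 replicate 6 stands at 87159, 3599 and 43660 CPM, and the slow sum of the other mice does not pass 11.7 CPM.

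Vehicle replicate 1 was the second mouse in the series for these genes, with a sum of 373 CPM, 3.81-fold above the median of the other vehicle mice. BDE-47 replicate 1 followed with 210 CPM, and had 31 of the 43 genes above 1 CPM against 30 in vehicle replicate 1. Vehicle replicate 1 was the next-highest mouse for 19 of the 43 genes, and BDE-47 replicate 1 for 4. Of all genes, 5.17% were highest in vehicle replicate 1 once BDE-47 replicate 6 was left out. This library listed more genes than most, with 11490 above 1 CPM against a median of 8366 over all mice, 331 of them in no other mouse. Tnnc2 was at 5.45 log2(CPM) there, Ckm at 4.86, Myl1 at 4.56, Atp2a1 at 4.39, Actn3 at 4.13 and Pvalb at 4.03. Myh1 was at 3.73 and Myh2 at 2.99, where the other vehicle mice reached at most 0.85 and 0.43. Fast-fibre genes thus led in this mouse too, at a small part of their level in BDE-47 replicate 6. It was not next-highest for Mylpf, Ttn or Cox6a2, where it stood at 2.38, 2.71 and 0.91.

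In the remaining mice the levels followed the order seen in BDE-47 replicate 6. The 14 genes at 11 or more log2(CPM) in that mouse were above 1 CPM in 192 of 196 values in the other 14 mice, the 9 genes at 10 to 11 in 80 of 126 and the 20 genes below 10 in 38 of 280. For the 14 most abundant genes, the level in each other mouse had a median over genes of 0.0435% to 0.214% of that in BDE-47 replicate 6 (median over mice 0.0587%). Within a mouse, the largest and smallest of these percentages lay 2.09-fold to 55.3-fold apart, with a median of 3.57-fold. Pearson's r of log2(CPM) with that mouse across these 14 genes was 0.59 to 0.96 (median 0.91). The genes share each library, and the correlation is given as a description. The part that RNA from BDE-47 replicate 6 has in the low values of the other libraries was not tested. The thin filament was at 50.2% of the summed CPM in BDE-47 replicate 6 and at 37.4% to 61.8% in the others (median 48.0%), and the thick filament at 17.6% against 9.67% to 21.0% (median 17.3%). Energy genes were at 14.2% there and at 7.31% to 45.5% elsewhere (median 12.6%), the top value being that of BDE-47 replicate 7 with its Eno3. Calcium handling was at 9.88% against 3.82% to 12.0% (median 8.82%) and the Z-disc at 8.19% against 3.58% to 22.8% (median 8.02%). The share of BDE-47 replicate 6 thus lay within the range of the other mice for every role, a range that was wide for energy and Z-disc genes. Values furthest above this line were those of single genes in single mice, such as Tnnc1 in BDE-47 replicate 5, which stood at 3.05% of its level in BDE-47 replicate 6.

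**Figure D4:**
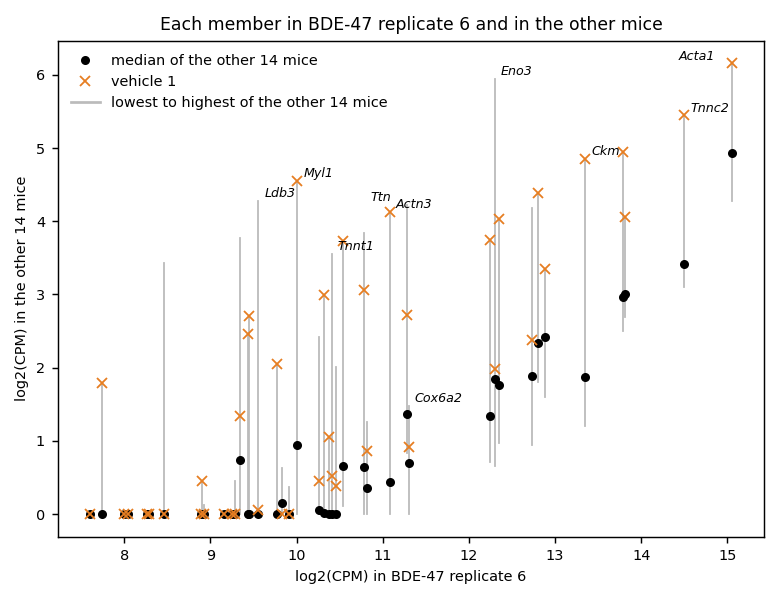
Level of each of the 43 genes in BDE-47 replicate 6 (horizontal axis, log2(CPM)) against its level in the other 14 mice (vertical axis, log2(CPM)), with dots for the median, grey lines from the lowest to the highest mouse and crosses for vehicle replicate 1. Medians are at 0 for genes of low level in BDE-47 replicate 6 and rise to 4.94 for Acta1.

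The same mouse was searched for other genes of muscle and of other cell types. Of 49 further skeletal muscle genes with values, all 49 were above 1 CPM in BDE-47 replicate 6, 48 were highest there and 21 were above 1 CPM nowhere else. Of the 16314 genes above 1 CPM in any mouse, 9326 were above it there. As background, 7.15% were highest there and 365 were above 1 CPM nowhere else. The list was chosen with earlier results of these data known, so the counts are a description. Tpm1 and Tpm2, the tropomyosins of the thin filament, were at 13.15 and 12.70 log2(CPM) there, and at most at 8.02 and 7.99 in other mice. Aldoa, an aldolase of glycolysis that many tissues express, was at 12.71 and at 7.30 to 9.26 elsewhere. Des, the intermediate filament desmin, was at 12.62 and at most 6.16 elsewhere. Together the 43 genes and these 49 held 20.7% of the reads of that library and 0.0728% to 0.147% of those of the other 14 mice. Vehicle replicates 1 and 3 were the highest of these, at 0.147% and 0.145%. Most of this came from the 49 genes, at 0.0592% to 0.138%, a list that holds genes of many tissues such as Aldoa.

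A further list held 22 regulators of muscle formation, developmental contractile genes and genes of the neuromuscular junction. Of these, 16 were above 1 CPM in BDE-47 replicate 6 and 9 of them in no other mouse, while 6 were listed at 0 in every mouse. The transcription factors Mef2c and Mef2d, which other tissues also express, were the most abundant, at 7.89 and 6.86 log2(CPM) there and at most 6.37 and 6.61 elsewhere. Myf6, the regulator of mature fibres, was at 5.21, Myod1 at 3.42, Myog at 1.90 and the satellite cell gene Pax7 at 3.01, all listed at 0 in the other 14 mice. The developmental myosins Myh8 and Myh3 were at 4.87 and 2.22, far under the adult Myh4 at 13.82. Of 8 cardiac markers, 6 were listed at 0 in BDE-47 replicate 6. Nppa, Myl7, Mybpc3 and Ryr2 were at 0 in every mouse, and Tnnt2 and Tnni3 were above 1 CPM only in vehicle replicate 7, at 3.04 and 3.39. Myl4 was at 2.49 in BDE-47 replicate 6 and at most 4.15 elsewhere. Myh6, a close copy of Myh7 beside which its reads may be split, was at 5.72. Of 10 smooth muscle and myoepithelial markers, 8 were above 1 CPM there and 3 were highest there, namely Des, Synm (8.04, at most 5.11 elsewhere) and Lmod1 (6.25, at most 6.02 elsewhere). Acta2, the smooth muscle actin, was at 4.50, under the 4.59 to 8.57 of the other mice. Cnn1 was at 0 there and above 1 CPM in 13 of the other 14 mice, and Actg2 was at 0 in every mouse. Smtn was at 5.34, within the range of the others (0 to 5.61). The summed list was highest in that mouse, at 6744 CPM, of which Des, which skeletal muscle also expresses, gave 6293.

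Markers of the mammary tissue itself were low in BDE-47 replicate 6. White adipocyte markers summed to 4344 CPM there, against 9963 to 17591 in the other BDE-47 mice and 515 to 33689 in vehicle mice. Mammary epithelial markers summed to 254 CPM, against 2252 to 3552 in the other BDE-47 mice and 80.7 to 2352 in vehicle mice. Only vehicle replicates 6 and 8, the mice with B cell markers, were lower on both lists. The part of these shifts in the muscle gene levels was not tested. The sum of Schwann cell markers was the lowest of the 15 mice there (98.0 CPM). The tendon and fascia list summed to 607 CPM, within the range of vehicle mice (280 to 2485) and under the other BDE-47 mice (838 to 1715), and Col1a1, Col3a1 and Dcn, which fibroblasts of many tissues express, gave 513 CPM of it. Of its 10 genes, 9 were above 1 CPM there against 3 to 6 in the other mice. Scx was highest there, at 6.06 log2(CPM) against at most 5.90, and Tnmd, Thbs4 and Chad, at 0.52, 3.62 and 1.46, were above 1 CPM in no other mouse.

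Markers of brown fat, which shares part of its metabolic genes with muscle, summed to 32.8 CPM there, within the 1.61 to 211 CPM of vehicle mice. Keratinocyte markers summed to 46.2 CPM, also within the range of vehicle mice (28.8 to 66.2), and no B cell marker was above 1 CPM.

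The comparison the study was designed for is BDE-47 against vehicle. For all 43 genes the mean log2(CPM) was higher in the BDE-47 group, and 41 of the 43 were higher by more than 1, a 2-fold change, while none was lower by more than 1. Of the 16314 genes above 1 CPM in at least 1 mouse, 9.97% were higher and 10.5% were lower by this measure. The median difference was 1.31 over the 43 genes and -0.02 over all genes tested. Since the genes were selected on the same values, nothing is read from these counts. With BDE-47 replicate 6 left out, none of the 43 was past 2-fold in either direction, 12 were higher, 23 lower and 8 at 0 in every remaining mouse, and the median difference was -0.01. The background without that mouse was 11.4% higher and 10.4% lower. Of the 1626 genes that were higher by more than 2-fold with all mice, 1379 were so without it, 247 were lost and 481 others were gained. Leaving out any other single mouse lost 38 to 324 of the 1626, so this loss was within the usual range. Without BDE-47 replicate 6 and vehicle replicate 1, an alternative chosen after the values were seen, again 0 of 43 were past 2-fold, with a median of 0.04. Then 25 were higher, 8 lower and 10 at 0, so the split of signs depended on vehicle replicate 1.

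Measured against the spread between mice, no gene passed. limma (empirical Bayes with a trend, Benjamini-Hochberg over the 9511 genes that reached 1 CPM in 7 mice or more) gave 0 genes with an adjusted p under 0.05, or 0% (lowest 0.982), and 443 genes, or 4.66%, with an unadjusted p under 0.05. Of the 43 genes, 24 entered this test, and none of the 24 had an unadjusted p under 0.05. Mybpc2 and Smpx passed the filter only through BDE-47 replicate 6, and 22 genes entered the test without that mouse. Ckm was at 2.33 ± 1.17 in vehicle mice (SD, n = 8) and at 3.64 ± 4.32 in BDE-47 mice (SD, n = 7), a log2 difference of 1.32 (limma standard error 1.28, adjusted p = 0.982). Without BDE-47 replicate 6 the BDE-47 mean was 2.03 ± 0.68 (SD, n = 6) and the difference -0.30 (standard error 0.97, limma adjusted p = 0.994). That mouse was left out because of its Ckm, so this value is a description and no independent test.

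For the other genes the differences were as follows. Acta1 differed by 1.44 (standard error 0.91, limma adjusted p = 0.982), and by -0.0035 without that mouse. Myh4 differed by 1.71 (standard error 1.10) and Mylpf by 1.71 (1.25), and these remained at 0.21 and 0.20 without it. Tnnc2 (1.29), Tnnt3 (1.47), Atp2a1 (1.45), Pvalb (1.25) and Mb (1.13) had differences below 0 without that mouse, from -0.29 to -0.02. The limma adjusted p was 0.982 for each of these genes with all mice and 0.989 to 0.999 without BDE-47 replicate 6. Both the genes and the mouse left out were chosen on these same values, so nothing is read from these p-values. Tnnc1, Myh7 and Myl2 were above 1 CPM in too few mice to be tested, and their differences of 1.70, 1.31 and 1.27 came from 2, 1 and 1 mice. The groups overlapped for all 43 genes, and 0.00613% of all genes had groups that did not overlap. For 34 of the 43 no BDE-47 mouse other than replicate 6 was above the highest vehicle mouse, against 62.4% of all genes. The 34 include the 8 genes listed at 0 in every other mouse, and ties count the same way over all genes.

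**Figure D5:**
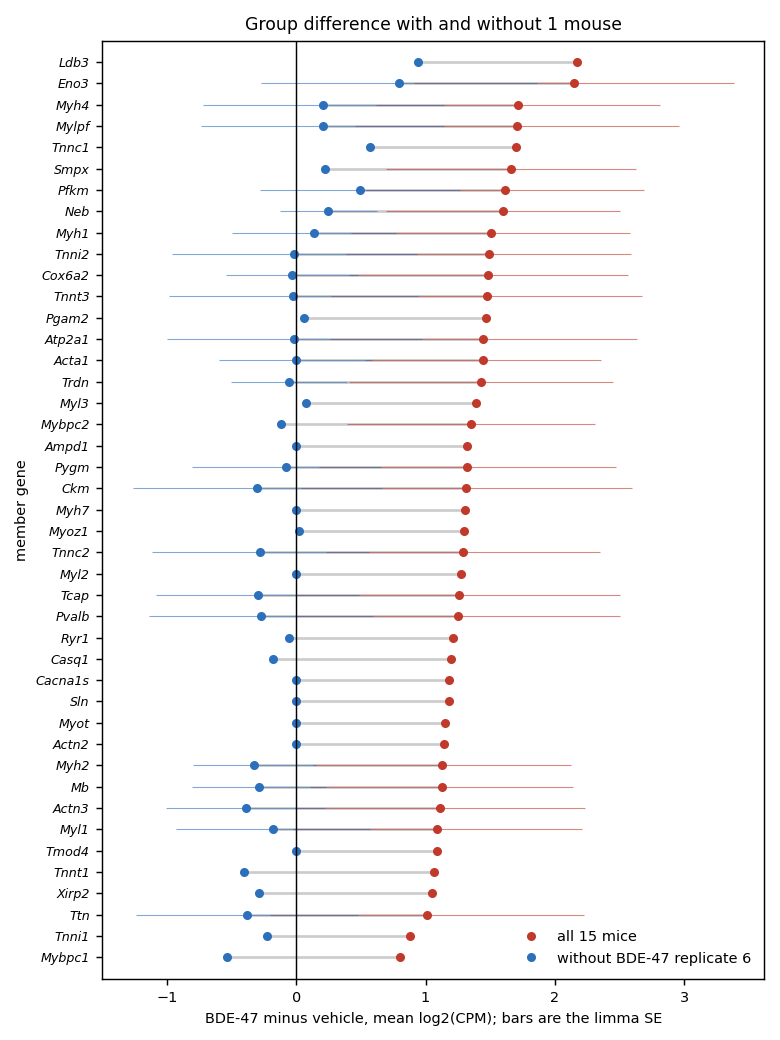
Difference of the group means of log2(CPM), BDE-47 minus vehicle (horizontal axis), for each of the 43 genes (vertical axis), with all 15 mice in red and without BDE-47 replicate 6 in blue, and limma standard errors as thin bars for genes that entered the fit. Red points lie between 0.80 and 2.17 and blue points between -0.54 and 0.94.

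The 12 genes with a positive difference without BDE-47 replicate 6 ranged from 0.02 for Myoz1 to 0.94 for Ldb3. Ldb3 differed by 0.94, with 4.28 log2(CPM) in BDE-47 replicate 4 and at most 0.72 in any other remaining mouse. For this gene 3 of the 6 BDE-47 mice were above the highest vehicle mouse. That vehicle mouse was at 1.04 CPM, and BDE-47 replicates 1 and 3 were at 1.59 and 1.65 CPM, close to the floor. Eno3 differed by 0.80, with its highest values in BDE-47 replicates 7 and 3 and vehicle replicate 8. Tnnc1 differed by 0.57 through BDE-47 replicate 5 alone. Pfkm differed by 0.49, Smpx by 0.22, and Neb by 0.25, with all 6 of these BDE-47 mice and 2 of 8 vehicle mice above 1 CPM. These Neb values lay next to that floor, at 1.11 to 1.49 CPM in the BDE-47 mice. The highest, 1.54 CPM, was that of vehicle replicate 6. Myh4, Mylpf and Myh1 differed by 0.21, 0.20 and 0.14. Mybpc1 had the lowest difference, -0.54, with 2.47 and 2.18 in vehicle replicates 1 and 7.

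Among 9487 other genes that reached 1 CPM in 7 mice or more, those most like the summed level of the 43 genes over the 15 mice were Rbm4b (Spearman's rho 0.78), Svbp (0.78), Zbtb38 (0.77), Zfp628 (0.76) and Gne (0.74). Over the 14 mice without BDE-47 replicate 6 they were Svbp (0.86), Zfp277 (0.82), Crybg1 (0.79), Napa (0.78) and Gimap6 (0.78). No gene of the muscle lists was among these, but most could not appear, so nothing is read from this. The 43 genes themselves were left out. Only 12 of the 49 further skeletal muscle genes and 4 of the 22 on the regulator list reached 1 CPM in 7 mice. A rank correlation also gives the 1 extreme mouse no more weight than any other. Svbp, the one gene in both sets, was at 2.12 log2(CPM) in BDE-47 replicate 6 and reached 6.06 in vehicle replicate 6. These are descriptions, picked as the highest of many correlations over libraries that differ in depth.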

How the data were processed

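Left 4th mammary tissue of 7 BDE-47 and 8 vehicle mice was profiled with QuantSeq 3′ FWD on 500 ng of RNA, and groups were taken from the sample labels. The authors aligned the reads with STAR (2.5.3a, GRCm38, per the labels' processing notes) to the RefSeq mouse genome and deposited log2(CPM). In these values a gene under 1 CPM is given as 0, as the values themselves show. Of 52636 entries, 110 that share a name were dropped, keeping the copy with the highest summed value. Depth came from the spacing of low CPM values.

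The 43 genes, their fast and slow assignment and the marker lists were chosen with earlier results of these data known. The rule for names took all 43 genes, a fixed 12 of them with their tests, up to 5 genes of each list by mean CPM and the 5 genes most like the summed level. Myf6, Myod1, Myog, Pax7, Myh8, Myh3, Myh6, Actg2, Cnn1, Synm, Lmod1, Smtn, Myl4, Myl7, Ryr2, Nppa, Tnnt2, Tnni3, Mybpc3, Scx, Tnmd, Thbs4, Chad, Ldb3 and Mybpc1 as singled out, and the genes of the closing section, were chosen after their values were seen. limma 3.58.1 in R 4.3.3 compared the groups, without the xenograft covariate of the study. Python 3.11.15 did the rest. The limma step was tested on simulated data. Alternatives were pseudocounts of 1 and 0.1, a looser filter, size factors, CPM without muscle genes, a replicate block, the ratio of means and each mouse left out.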

Additional observations from a re-analysis of the deposited data

Results flagged for a closer look

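Within each group, a mouse was marked where its gap to the nearest other mouse took more than Dixon's 95% share of the group's range, which chance does for about 1 in 20 groups. That rate does not apply here, because the genes were chosen by their levels in these mice, and the marks are a description. BDE-47 replicate 6 was marked as the highest of the BDE-47 mice for 41 of the 43 genes, all except Eno3 and Ldb3, which BDE-47 replicates 7 and 4 also carried. Over all 16314 genes above 1 CPM in any mouse, 4.32% were marked there.

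Its log2(CPM) was 15.06 for Acta1, 14.50 for Tnnc2, 13.82 for Myh4, 13.35 for Ckm, 12.89 for Tnnt3 and 12.80 for Atp2a1. It was 12.73 for Mylpf, 12.35 for Pvalb, 10.26 for Mb, 9.16 for Myh7, 8.90 for Myl2 and 8.46 for Tnnc1. The summed level in the same mouse was 163481 CPM over all 43 genes, 87159 CPM over the fast genes and 3599 CPM over the slow genes. By role it was 82037 CPM for the thin filament, 28698 for the thick filament, 23199 for energy metabolism, 16156 for calcium handling and 13391 for the Z-disc.

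Vehicle replicate 1 was marked as the highest of the vehicle mice for 13 of the 43 genes, against 5.40% of all genes, the most of any vehicle mouse. Among the 13 were Tnnc2 at 5.45 log2(CPM), Ckm at 4.86, Atp2a1 at 4.39 and Pvalb at 4.03. Its summed level was 373 CPM over all 43 genes, 212 over the fast genes, 161 for the thin filament, 74.2 for the thick filament and 44.7 for calcium handling. Vehicle replicate 2 was marked for the slow genes, at 11.7 CPM, which was Tnnt1 alone. The source of the muscle RNA in these libraries was not tested.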

How the results depend on the processing

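The size of the difference between BDE-47 and vehicle rested on BDE-47 replicate 6. Without that mouse, the number of the 43 genes over 2-fold higher fell from 41 to 0. The median over them fell from 1.31 to -0.014. Over the genes in the test it fell from 1.44 (24 genes) to -0.04 (22 genes). Without vehicle replicate 1 as well, the values were 0, 0.04 and 0.19 (20 genes in the test). The split of signs moved to 25 higher and 8 lower, from 12 and 23. Leaving out each mouse in turn gave 0 to 43 genes, medians of -0.014 to 1.61 and, over those in the test, -0.04 to 1.74; with BDE-47 replicate 6 kept, 37 to 43 genes. Differences ran from -0.30 to 1.72 for Ckm, -0.0035 to 1.79 for Acta1, -0.28 to 1.62 for Tnnc2, -0.023 to 1.84 for Tnnt3, -0.016 to 1.82 for Atp2a1, -0.27 to 1.62 for Pvalb and -0.29 to 1.42 for Mb, each lowest without that mouse. For Myh4 and Mylpf they stayed above 0, at 0.21 to 2.06 and 0.20 to 2.12. Tnnc2 was at -0.05 without both mice.

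The count of genes with a limma adjusted p under 0.05 was 0 in every fit, against 339 to 573 with an unadjusted p under 0.05. The other pseudocounts, the looser filter and both rescalings left 38 to 42 of the 43 genes over 2-fold higher (43 by the ratio of mean CPM) and none lower. Size factors raised BDE-47 replicate 6 by 0.68 and the difference over all genes by 0.09 log2. With CPM on genes above 1 CPM as the total, the 43 genes held 24.6% of that library in place of 16.3%.

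With the replicate number as a block over 7 pairs (a replicate block), 40 genes were over 2-fold higher and 0 of all genes passed the adjusted threshold. Deviations of same-numbered mice were only weakly related (r -0.02 to 0.05 for the 7 pairs). The same-numbered mouse still had the highest r in the other group for 3 of 7 vehicle and 4 of 7 BDE-47 mice. Whether the numbers mark pairs was thus not settled, and the main fit did not take them as pairs. The floor of 1 CPM limits the genes of low level most.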

Other observations

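In BDE-47 replicate 6, 269 genes were more than 3 log2 units above every other mouse, and together they held 22.8% of its reads. They were the 43 genes of the report, 41 of the other skeletal muscle genes, 4 regulators or developmental genes of muscle, 2 genes of other lists (Myh6 and Thbs4) and 179 genes in no list. The other 14 mice had 1 to 187 such genes with 0.00113% to 5.92% of their reads.

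Among the 179 genes, the most abundant was Slc25a4, the ADP/ATP carrier of mitochondria, at 12.15 log2(CPM) in that mouse and at most 8.36 elsewhere. Ndrg2 was at 10.57 and at most 7.07 elsewhere. Gapdh, an enzyme of glycolysis often used as a reference gene, was at 10.13 there and at 4.91 to 7.09 in the other mice. Cryab, a small heat shock protein of muscle and lens, was at 9.98 and at most 6.46 elsewhere. These genes were chosen after their values were seen and were not tested.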
